A study of Rattus norvegicus with 3 samples.

Results

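The genes described are those of the proteasome, the barrel-shaped protease that degrades proteins tagged with ubiquitin, measured in whole rat testis soon after birth. They were chosen by symbol, as every gene with a symbol of the Psma, Psmb, Psmc, Psmd, Psme, Psmf or Psmg series followed by a number. The RefSeq gene table of assembly GRCr8 holds 49 such symbols, and 32 of them had a probe set on the arrays that could be matched by accession, each with 1 probe set. The 32 stood among 9627 named genes and 26299 genes in all. They comprised 6 Psma, 9 Psmb, 6 Psmc, 8 Psmd and 3 Psme genes. The 17 symbols without a matched probe set included Psmb5, Psmc6, Psmd14, Psme4, the Psma8 gene of the testis-specific core, and all Psmf and Psmg genes, and they were not analysed here. One of the 32, Psmc3ip, has a proteasome symbol but encodes a cofactor of meiotic recombination and no proteasome subunit, so 31 of the genes encode subunits, activators or assembly chaperones.

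Testes came from untreated Wistar-Imamichi rats, a Wistar stock, on postnatal days 6, 8 and 10, with the day of birth counted as day 1. Total RNA of each day was labelled with Cy3 and hybridised to 1 NimbleGen array, and 26419 probe sets were read per array. The groups differ by age alone in the labels, which name no genotype or agent, and how many animals gave RNA to an array is not given in the sources used here. The study screened for genes that differed 2-fold or more between days.

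The core particle of the proteasome is a stack of rings. Alpha subunits (Psma) form the outer rings that gate the entrance, and beta subunits (Psmb) form the inner rings that hold the proteolytic sites. The regulatory particle, made of ATPases (Psmc) and non-ATPase subunits (Psmd), binds the tagged protein, unfolds it and feeds it into the core, while activators of the Psme series open the gate in other ways. Interferon gamma induces 3 alternative catalytic beta subunits, Psmb8, Psmb9 and Psmb10, which replace Psmb5, Psmb6 and Psmb7 in the immunoproteasome and alter the peptides made for display on MHC class I molecules. In the testis, proteasomes are also remodelled during meiosis and sperm formation, which begin later than the ages measured here.

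Each day rests on 1 array, so no difference below was checked against a spread between animals and none carries a p-value, and an effect of age cannot be told apart from one of the animal or the array. A level is a log2 intensity, and a difference is the level on the later day minus that on the earlier day, a difference of 1 being 2-fold. Probe sets of the same gene, for the genes with more than 1, differed in their day 10 against day 6 difference by a median SD of 0.19 (64 genes, pooled SD 0.40). A gene was counted when it lay above the floor of at least 1 of the 2 arrays compared. The floor was the median of the array (7.78, 7.79 and 7.67 on days 6, 8 and 10), which was higher than the 95th percentile of olfactory and vomeronasal receptors, and all 32 genes lay above it on all 3 days. Markers of the tissue were present, with 10 of 10 Sertoli cell markers and 7 of 8 Leydig cell markers above the floor on at least 1 day. Of 8 spermatid markers, 1 was above it. In whole tissue, fewer cells of a type and less RNA per cell cannot be told apart.

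Proteasome genes lay mostly slightly higher on day 10 than on day 6. The difference was positive for 27 of the 32, its median was 0.37 (1.29-fold) and it ranged from -0.38 to 1.23. Over all 13955 genes in the comparison, 51.3% had a positive difference and the median was 0.02. The same held for the 8035 genes at least as bright as the dimmest proteasome gene, where 52.1% were positive and the median was 0.03. Only Psmb8, Psmb3 and Psmb9 were at least 2-fold higher, which is 9.38% of the 32, against 8.57% of all genes, 4.48% of named genes and 3.55% of the genes as bright. None was 2-fold lower, where 12.8% of all genes were, and none was even 1.5-fold lower, where 23.7% of all genes and 18.4% of the genes as bright were. The share of 2-fold higher genes was thus close to that of all genes. It was above those of named genes and of the genes as bright, but rests on Psmb8, Psmb3 and Psmb9 alone. The proteasome genes differed from all genes more in their few lower members. The middle 50% of proteasome differences ran from 0.13 to 0.59, against -0.54 to 0.48 for all genes.

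Day 10 was the highest of the 3 days for 26 of the 32 genes (81.2%), and for 43.0% of all 14137 genes above the floor on any day. Day 6 was the lowest for 18 (56.2%), against 30.7% of all genes. The scaling of the arrays bears on these figures. Over all genes, 1196 were 2-fold higher and 1786 lower on day 10 (59.9% lower), and after centring every array at its median the lower share was 49.8%. That centring raised the median of all genes from 0.02 to 0.14. It shifts every gene alike, so the proteasome median had to stay 0.35 above the median of all genes. This gap was 0.29 under quantile and 0.32 under cyclic loess normalization. With the trend of the difference with genomic span subtracted, the gap to named genes was 0.24.

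**Figure D1:**
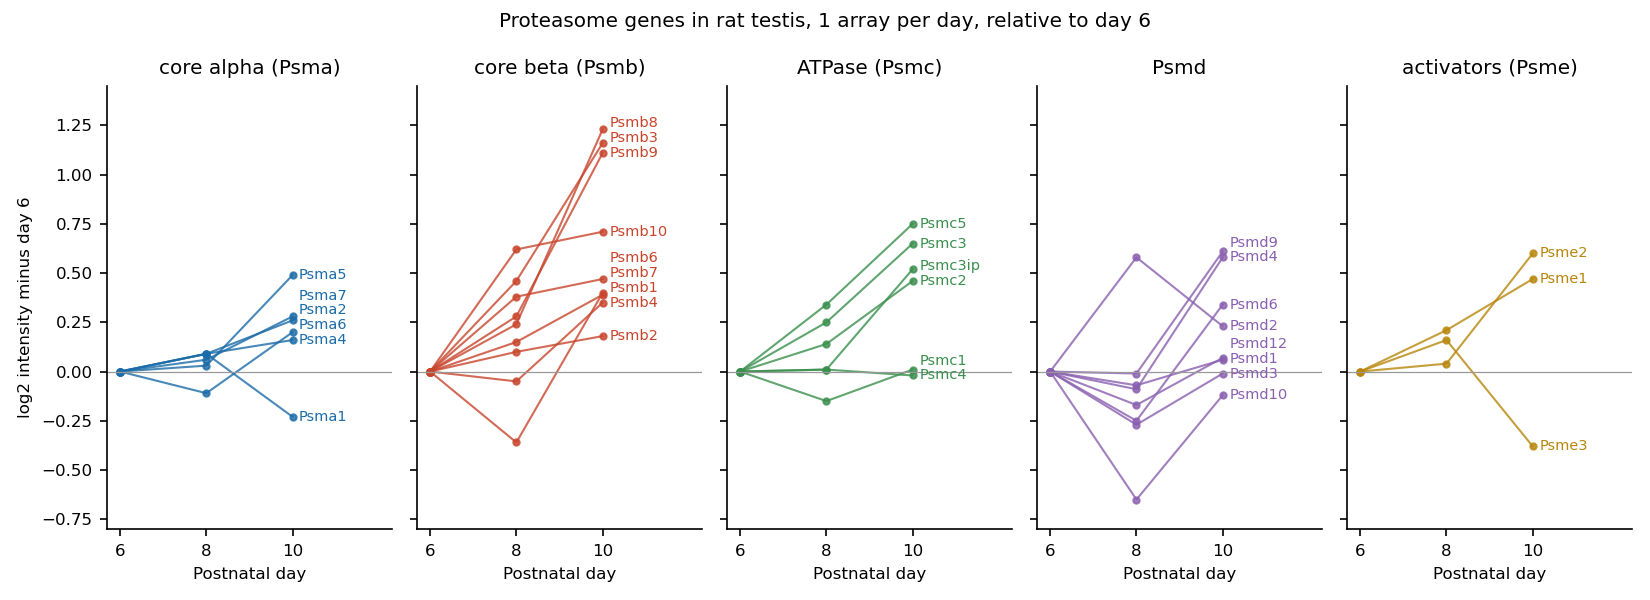
Log2 intensity of each of the 32 genes on postnatal days 6, 8 and 10, minus its own day 6 value, in 1 panel per symbol group. Each line is 1 gene with 1 array per day and no error bars. Psmb8, Psmb3 and Psmb9 end more than 1 above day 6, and 7 of 8 Psmd genes lie below 0 on day 8.

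The immunoproteasome subunits were all higher on day 10. Psmb8, which takes the place of the chymotrypsin-like subunit Psmb5, had levels of 9.91, 10.16 and 11.14 on days 6, 8 and 10. Its day 10 level was 2.35-fold that of day 6, the largest difference among the 32, and most of it (0.99) lay between days 8 and 10. Psmb9, which takes the place of the caspase-like subunit Psmb6, had 10.01, 10.30 and 11.13, a 2.17-fold difference with the larger step also after day 8 (0.83). Psmb10, which takes the place of the trypsin-like subunit Psmb7, followed another course, with 11.79, 12.41 and 12.51. It was 1.54-fold higher by day 8 and differed by 0.09 between days 8 and 10.

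Set beside the subunits they replace, the order depended on the day. Psmb6 had 12.63, 13.01 and 13.11, so that between days 6 and 10 it differed by 0.47 and Psmb9 by 1.11, a gap of 0.64. Between days 6 and 8 that gap was -0.10. Psmb7 had 14.25, 13.89 and 14.65, its lowest value being that of day 8. The day 10 against day 6 difference of Psmb10 exceeded that of Psmb7 by 0.31 (0.71 against 0.40). Psmb7 spans 60.0 kb and Psmb10 2.48 kb, and with the trend of the difference with genomic span subtracted the order turned, the gap being -0.45. For Psmb9 and Psmb6 it was 0.76 after that subtraction. Psmb5 had no matched probe set, so Psmb8 has no partner here.

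The remaining beta subunits, which are structural and carry no active site in mammals, were also all higher on day 10, Psmb3 by far the most. Psmb3 had levels of 11.48, 11.94 and 12.63 on days 6, 8 and 10, and was thus higher at each later day and 2.23-fold higher over the whole interval. The others had smaller differences from day 6 to day 10, namely 0.39 for Psmb1, 0.18 for Psmb2 and 0.35 for Psmb4. All 9 beta genes had a positive difference (median 0.47, range 0.18 to 1.23). Without the immunoproteasome subunits the median of the other 6 was 0.39. With the span trend subtracted, 8 of 9 stayed positive, Psmb4 being at -0.01.

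Promoters are shown for the 4 beta genes with the largest differences between days 6 and 10, for the interferon-inducible activators Psme1 and Psme2 and, for contrast, for the constitutive subunit Psmb6. Each is RefSeq sequence of build GRCr8, from 250 bases before to 50 after the annotated start, read 5′ to 3′ along the gene. Capitals mark matches, on either strand, to TGACNNNGC (the core of the antioxidant response element bound by the proteasome regulator NFE2L1), CCAAT (bound by NF-Y), the core of the interferon-stimulated response element (GAAA, any 2 bases, GAAA) and TTCNNNGAA (an element bound by STAT factors).
Psmb8 promoter, chr20:4656982-4657281, minus strand: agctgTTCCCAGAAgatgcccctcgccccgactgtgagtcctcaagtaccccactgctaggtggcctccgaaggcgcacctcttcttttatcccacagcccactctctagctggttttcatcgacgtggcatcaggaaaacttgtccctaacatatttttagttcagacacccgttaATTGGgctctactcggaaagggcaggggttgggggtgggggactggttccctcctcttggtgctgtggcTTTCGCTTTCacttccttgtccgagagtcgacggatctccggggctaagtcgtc
Psmb9 promoter, chr20:4668750-4669049, plus strand: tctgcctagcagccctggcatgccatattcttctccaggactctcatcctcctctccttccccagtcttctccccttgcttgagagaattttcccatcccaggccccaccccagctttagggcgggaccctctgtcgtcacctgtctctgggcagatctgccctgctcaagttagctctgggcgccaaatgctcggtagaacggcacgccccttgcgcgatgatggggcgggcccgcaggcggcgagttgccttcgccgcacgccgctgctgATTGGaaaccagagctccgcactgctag
Psmb10 promoter, chr19:50743243-50743542, minus strand: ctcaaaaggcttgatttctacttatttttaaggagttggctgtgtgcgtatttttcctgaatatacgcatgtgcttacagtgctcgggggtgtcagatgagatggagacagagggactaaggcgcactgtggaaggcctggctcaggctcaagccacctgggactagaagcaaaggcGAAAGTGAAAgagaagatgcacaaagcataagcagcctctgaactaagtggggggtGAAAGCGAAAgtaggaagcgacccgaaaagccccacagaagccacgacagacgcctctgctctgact
Psme1 promoter, chr15:33038721-33039020, plus strand: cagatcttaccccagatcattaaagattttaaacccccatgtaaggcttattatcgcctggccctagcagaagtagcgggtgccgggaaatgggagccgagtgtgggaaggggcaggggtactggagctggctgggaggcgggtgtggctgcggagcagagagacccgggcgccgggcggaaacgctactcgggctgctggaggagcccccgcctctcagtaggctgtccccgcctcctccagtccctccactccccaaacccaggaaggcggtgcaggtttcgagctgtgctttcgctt
Psme2 promoter, chr15:33052702-33053001, minus strand: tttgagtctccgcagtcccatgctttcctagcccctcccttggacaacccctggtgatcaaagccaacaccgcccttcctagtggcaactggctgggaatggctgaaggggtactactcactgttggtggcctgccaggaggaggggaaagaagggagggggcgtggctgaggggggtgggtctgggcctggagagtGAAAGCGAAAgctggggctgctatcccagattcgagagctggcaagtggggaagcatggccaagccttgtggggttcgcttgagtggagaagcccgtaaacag
Psmb3 promoter, chr10:83193537-83193836, plus strand: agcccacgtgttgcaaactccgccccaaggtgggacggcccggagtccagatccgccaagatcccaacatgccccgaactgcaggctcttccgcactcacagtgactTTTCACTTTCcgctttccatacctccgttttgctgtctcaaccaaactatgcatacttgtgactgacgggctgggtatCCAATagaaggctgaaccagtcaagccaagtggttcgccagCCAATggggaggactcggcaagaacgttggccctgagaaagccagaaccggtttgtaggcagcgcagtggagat
Psmb6 promoter, chr10:55737638-55737937, plus strand: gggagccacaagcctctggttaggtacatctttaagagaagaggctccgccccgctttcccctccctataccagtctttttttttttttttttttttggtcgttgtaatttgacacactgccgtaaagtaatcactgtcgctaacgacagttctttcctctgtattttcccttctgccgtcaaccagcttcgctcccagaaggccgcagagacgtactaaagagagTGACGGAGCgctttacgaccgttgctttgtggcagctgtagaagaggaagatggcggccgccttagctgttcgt

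The interferon-stimulated response element core stood in 5 of the 29 proteasome promoters in the table (17.2%), those of Psmb8, Psmb10, Psme2, Psmb3 and Psma4, and in 3.92% of all 33469 promoters. Psmb10 held it at 2 places, beginning 73 and 17 bases before the start. In Psmb8 it lay on the opposite strand and spanned the start, its first printed base being 4 bases before the start, and in Psme2 it began 53 bases before. Psmb9 had no match to it in this window, and Psme1 had none to any of the 4 motifs. CCAAT stood in 17 of the 29 (58.6%) and in 37.5% of all promoters, and TGACNNNGC in 5 (17.2%) and 12.1%, among them Psmb6, 24 bases before the start. TTCNNNGAA, which reads the same on both strands, stood in 2 (Psmb8 and Psmd3) and in 8.87% of all promoters. These are matches of letters, and binding was not measured.

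The alpha subunits, which form the gate, differed little. Of 6 genes, 5 had a positive day 10 against day 6 difference (median 0.23, range -0.23 to 0.49), and none differed 1.5-fold, where 20.4% of all genes were 1.5-fold higher and 23.7% lower. Psma5 had 12.42, 12.46 and 12.91 on days 6, 8 and 10, the largest difference of the group (0.49). Psma7, whose place in the ring the germ cell subunit Psma8 takes during meiosis, had 13.88, 13.94 and 14.16 (0.28). Psma1 went the other way, with 14.40, 14.49 and 14.16, a difference of -0.23 from day 6 to day 10. Psma2, Psma4 and Psma6 lay between 0.16 and 0.26. With the span trend subtracted, Psma4 turned to -0.05 and the group median was 0.08.

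Among the ATPases of the base, which unfold the substrate, the difference was uneven. Psmc5 had 11.72, 12.06 and 12.47 and was 1.68-fold higher on day 10 than on day 6. Psmc3 had 13.83, 14.08 and 14.49 and was 1.57-fold higher, and Psmc2 had 13.23, 13.37 and 13.68 (0.46). These 3 genes were higher on each later day. Psmc1 and Psmc4, members of the same hexamer, differed by 0.01 and -0.02 between days 6 and 10. The median of the 5 ATPases was 0.46. Psmc3ip, the recombination cofactor that shares only the symbol, had 12.08, 12.09 and 12.60 (0.52).

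The Psmd genes encode the scaffold of the base, the lid and some assembly chaperones, and most of them had small negative differences between days 6 and 8. Of the 8, 7 were negative, with a median of -0.13, where 55.3% of all 13496 genes were positive. Psmd9, Psmd1 and Psmd4 differed by -0.01, -0.07 and -0.09. The count was 7 of 8 under median centring, quantile and cyclic loess normalization and with the span trend subtracted. The exception was Psmd2, a scaffold subunit of the base, with 13.55, 14.13 and 13.79, which was 1.49-fold higher on day 8. Psmd10 (gankyrin), a chaperone of base assembly and no part of the finished particle, had 10.33, 9.68 and 10.21 and was 1.57-fold lower on day 8. The lid subunits Psmd3 (12.99, 12.72 and 12.98) and Psmd6 (12.21, 11.96 and 12.54) also had their lowest value on day 8, with differences of -0.27 and -0.25 from day 6. Probe sets of the same gene had a median SD of 0.15 in this comparison (63 genes, pooled SD 0.27), which is larger in size than the median of the group. That SD is for single genes on the same arrays, and it gives no spread of a group median or between animals.

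By day 10, 6 of the 8 Psmd genes lay above their day 6 level, with a median difference of 0.15. Psmd9, a further assembly chaperone, had 11.84, 11.83 and 12.45 and was 1.52-fold higher on day 10. Psmd4, a ubiquitin receptor of the regulatory particle, had 12.00, 11.91 and 12.58 (0.58). Psmd1, a scaffold subunit like Psmd2, had 13.22, 13.15 and 13.29, and the lid subunit Psmd12 had 12.98, 12.81 and 13.04, differences of 0.06 and 0.07. Psmd1 has the longest span of the 32 genes, 75.2 kb, and its difference was 0.49 with the span trend subtracted.

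The 3 activator genes went both ways, and with so few genes no difference by type of activator was tested. Psme1 and Psme2 encode the subunits of the interferon-inducible activator ring of the cytoplasm. Psme1 had 12.58, 12.79 and 13.06 on days 6, 8 and 10, and Psme2 had 11.95, 11.99 and 12.55. Both were thus highest on day 10, by 1.39-fold and 1.51-fold over day 6. Psme3, the subunit of the related activator of the nucleus, had 12.67, 12.83 and 12.29 and was 1.30-fold lower on day 10 than on day 6, the most negative difference among the 32. Its difference from day 8 to day 10 was -0.54, and with the span trend subtracted its day 10 against day 6 difference was -0.58. That of Psme1 was then 0.12 and that of Psme2 0.30.

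**Figure D2:**
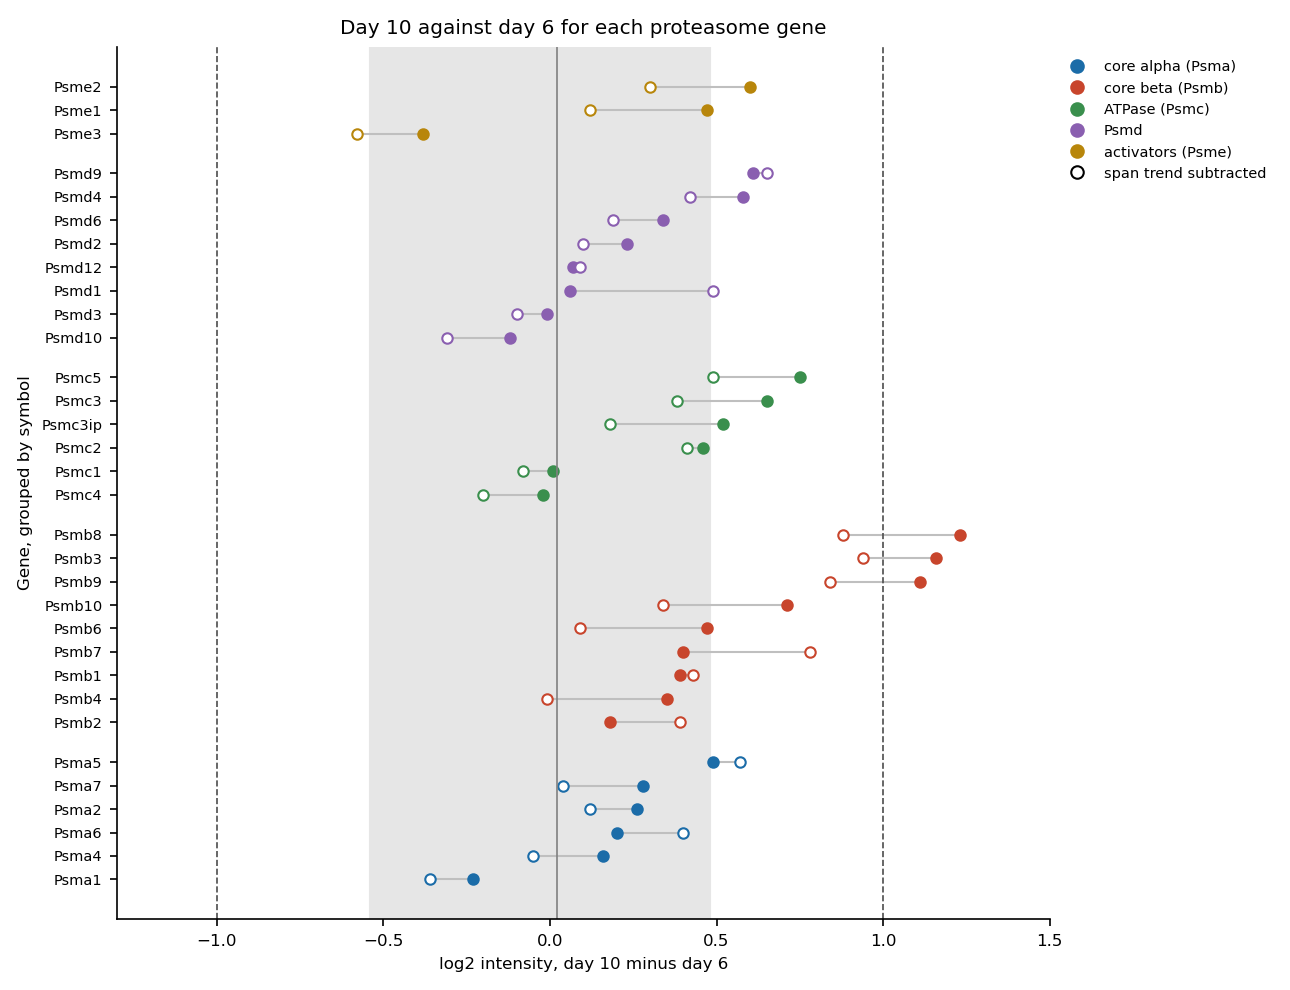
Log2 difference between day 10 and day 6 for each of the 32 genes, by symbol group, as measured (filled) and with the trend with genomic span subtracted (open). The grey band is the middle 50% of all genes, from -0.54 to 0.48, the vertical line their median, and dashed lines mark 2-fold. Each point is 1 gene on 1 array per day, and Psmb8, Psmb3 and Psmb9 pass 2-fold as measured and not after subtraction.

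The 5 members that interferon gamma is known to induce (Psmb8, Psmb9, Psmb10, Psme1 and Psme2), a grouping made with their values known, had a median difference of 0.71 between days 6 and 10, against 0.28 for the other 27. With the span trend subtracted all 5 stayed positive, with a median of 0.34 against 0.18. They are short genes, with a median span of 2.98 kb against 10.4 kb. Psmb8 and Psmb9 lie in the MHC region of chromosome 20 in the order Tap2, Psmb8, Tap1, Psmb9, with no annotated gene between them and 408 bases between Tap1 and Psmb9. Psme1 and Psme2 lie on chromosome 15 with Emc9 between them.

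The peptide transporter genes of the same cluster showed smaller differences. Tap1, which with Tap2 carries proteasome products into the endoplasmic reticulum, had 9.98, 10.32 and 10.30, a day 10 against day 6 difference of 0.32. Tap2 had 8.68, 8.74 and 9.33 (0.65), and Tapbp, which couples the transporter to class I molecules, had 9.52, 10.13 and 10.08 (0.56). Between days 8 and 10 Tap1 and Tapbp differed by -0.02 and -0.06, where Tap2 differed by 0.59, Psmb8 by 0.99 and Psmb9 by 0.83.

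The class I molecules and their chaperones were mixed. B2m, the light chain of class I molecules, had 14.17, 14.37 and 13.95. The chaperone Canx had 14.05, 13.72 and 12.68 and was 2.58-fold lower on day 10 than on day 6, while Calr and Pdia3 had day 10 against day 6 differences of -0.56 and -0.45. The heavy chain genes RT1-A2, RT1-A3 and RT1-CE5 were lower on day 8 than on day 6, with differences of -1.01, -1.25 and -1.03. RT1-A3 (7.73) and RT1-CE5 (7.66) were under the floor on day 8. Their lower values did not last to day 10, where the differences from day 6 were 0.64 for RT1-A2, -0.01 for RT1-A3 and 0.26 for RT1-CE5. RT1-CE1 had 10.61, 10.58 and 11.60. These 4 belong to a family of near-identical genes, and their probe sets may not tell them apart. Of the 11 class I loading genes measured, 6 had a positive and 5 a negative difference from day 6 to day 10 (median 0.26), with 1 at least 2-fold lower. Of all genes, 51.3% were positive and 12.8% at least 2-fold lower.

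Interferon response genes as a list went both ways between days 6 and 10. Of 22 on the array, 13 were above the floor on either day, 7 positive and 6 negative (median 0.05). Between days 6 and 8, 8 of 11 were positive with a median of 0.41, where 55.3% of all genes were positive (median 0.04). Between days 8 and 10, 6 of 13 were positive with a median of -0.10, where 49.4% of all genes were positive (median -0.01). The genes counted differ between the intervals, since some passed the floor on day 10 alone. The transcription factor Irf1 had 12.84, 13.26 and 12.70, highest on day 8. Oas1a and Irf7, of the antiviral response, were at least 2-fold higher on day 10 than on day 6, which is 2 of 13, where 8.57% of all genes were. Oas1a had 7.45, 7.86 and 8.78, and Irf7 6.53, 7.02 and 7.82, both under the floor on day 6. Both were counted in that comparison only through day 10, so their higher values on that day follow from the floor.

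Immune cell markers were measured beside the immunoproteasome genes, since such cells carry these subunits at high levels. Of 11 macrophage markers on the array, 10 were above the floor on at least 1 day. The linear intensities of all 11 summed to 14147, 15421 and 17166 on days 6, 8 and 10. From day 6 to day 10 the difference was positive for 7 of these 10 and negative for 3, with a median of 0.31 and of 0.00 with the span trend subtracted. They ranged from -0.41 for Adgre1 to 1.06 for C1qb, which had 8.71, 8.88 and 9.77. Of 11 lymphocyte markers, 3 were above the floor on any day. The summed intensity of all 11, including those under the floor, was 761, 997 and 1107. The T cell genes Cd3d, Cd3g and Cd8a and the B cell gene Cd79b were under the floor on all 3 days. The 3 above it were the natural killer cell genes Nkg7 (6.42, 7.41 and 8.22) and Klrb1a (6.98, 6.97 and 7.81), both above the floor on day 10 alone, and Cd4 (7.84, 8.48 and 6.51), above it on days 6 and 8. Since Nkg7 and Klrb1a were counted only through day 10, their higher values on that day follow from the floor. Cd4 was lower on day 10. The part of macrophage and lymphocyte content in the day 10 levels of Psmb8 and Psmb9 was not tested. Markers of Leydig cells, the steroid-making cells between the tubules, were lower on day 10 than on day 6 for 5 of the 7 above the floor. They were higher for Insl3 and Hsd11b1. The sum over all 8 Leydig cell markers on the array was 30123, 26982 and 13753. The Sertoli cell sum was 74644, 80101 and 71066, the germ cell sum 4941, 5486 and 7151, and the endothelial sum 6697, 6995 and 3675. These sums also take in all markers on the array, and their members went both ways from day 6 to day 10. Of those counted, 6 Sertoli cell markers were higher and 4 lower, 4 germ cell markers higher and 2 lower, and 1 endothelial marker higher and 4 lower. Among the germ cell markers Tex101 was 4.07-fold higher and Kit 3.16-fold lower.

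**Figure D3:**
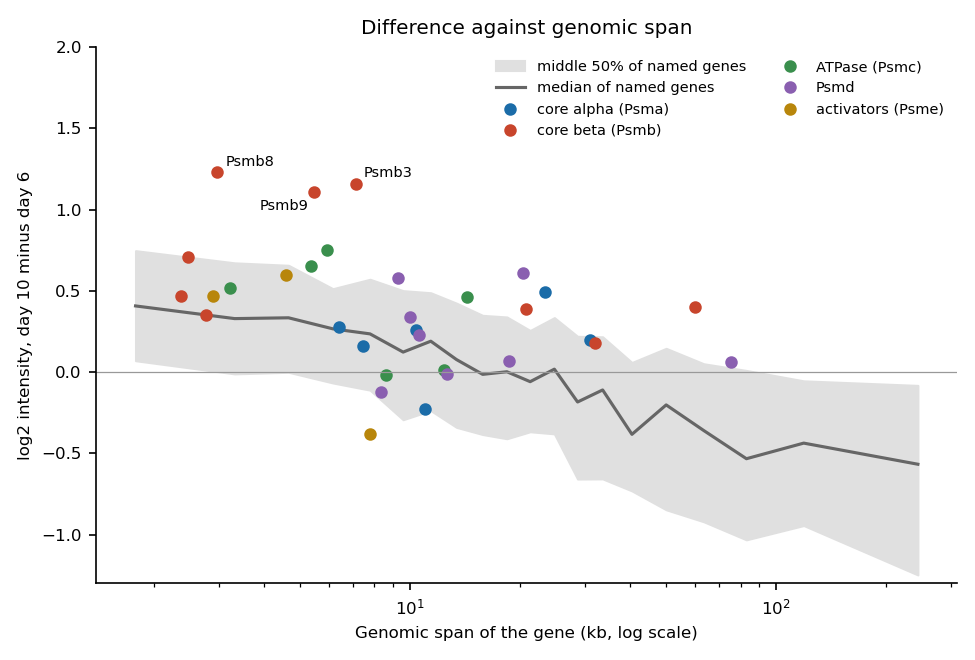
Log2 difference between day 10 and day 6 against the genomic span of the gene in kb, on a log axis. The grey line and band are the median and middle 50% of named genes in 20 bins of span, and coloured points are the 32 genes, 1 array per day. Psmb8, Psmb9 and Psmb3 are among those above the band, and Psme3 lies below it.

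Genomic span moved with the difference between days 6 and 10, as among named genes. Across 5518 named genes Spearman's rho between span and the day 10 against day 6 difference was -0.43, and across the 32 proteasome genes -0.45. Between days 6 and 8 rho was -0.15 across named genes and -0.49 across the proteasome genes, and between days 8 and 10 it was -0.36 and -0.11. These are relations across genes of the same arrays. Proteasome genes are short, with a median span of 8.94 kb against 20.1 kb for named genes above the floor. The 16 shorter ones had a median difference of 0.50, and the 1125 named genes within their range of spans 0.28. The 16 longer ones had 0.25, against -0.07 for 3260 named genes. With the span trend subtracted, 24 of the 32 were positive (50.7% of named genes), the median was 0.25 and 0 passed 2-fold in either direction, where 4.4% of named genes were higher and 8.79% lower. Psmb3, Psmb8 and Psmb9 then had 0.94, 0.88 and 0.84.

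Other genes of the ubiquitin pathway had no common difference from day 6 to day 10. Of 6 proteasome cofactors on the array, 2 were positive (median -0.12). The ubiquitin receptor Adrm1 had a difference of 0.31, the deubiquitinase Usp14 -0.18, the proteasome-associated thioredoxin Txnl1 -0.06 and Akirin2, which is needed for nuclear import of proteasomes, -0.24. The stress-induced factor Zfand2a had 9.54, 9.70 and 8.53 and was 2.02-fold lower, while its relative Zfand2b had 7.39, 7.88 and 8.02. The 7 ubiquitin and E1 genes had a median of 0.07 and the 12 E2 genes -0.06. The E2 gene Cdc34 was 2.6-fold higher (8.05, 8.16 and 9.42).

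Among the shuttle and p97 genes (11 above the floor, median -0.09), Nploc4, a cofactor of the p97 unfoldase, was 2.29-fold lower (11.52, 11.47 and 10.32). Among 8 known regulators of proteasome genes (median -0.19, 3 positive and 5 negative), Nfya, a subunit of NF-Y, was 3.15-fold lower (11.17, 11.23 and 9.52). Nfe2l1 had no matched probe set, and its relative Nfe2l2 had 12.19, 11.90 and 12.00.

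For scale, 3 other large complexes of the cytosol were read in the same way. The CCT chaperonin had a median difference of -0.05 between days 6 and 10 (2 of 6 genes positive), the COP9 signalosome, a relative of the proteasome lid, 0.02 (4 of 7), and the translation factor eIF3 0.02 (4 of 8). The proteasome median was 0.37, and with the span trend subtracted the values were -0.14, 0.01, 0.08 and 0.25. No test of the difference between the lists was made.

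**Figure D4:**
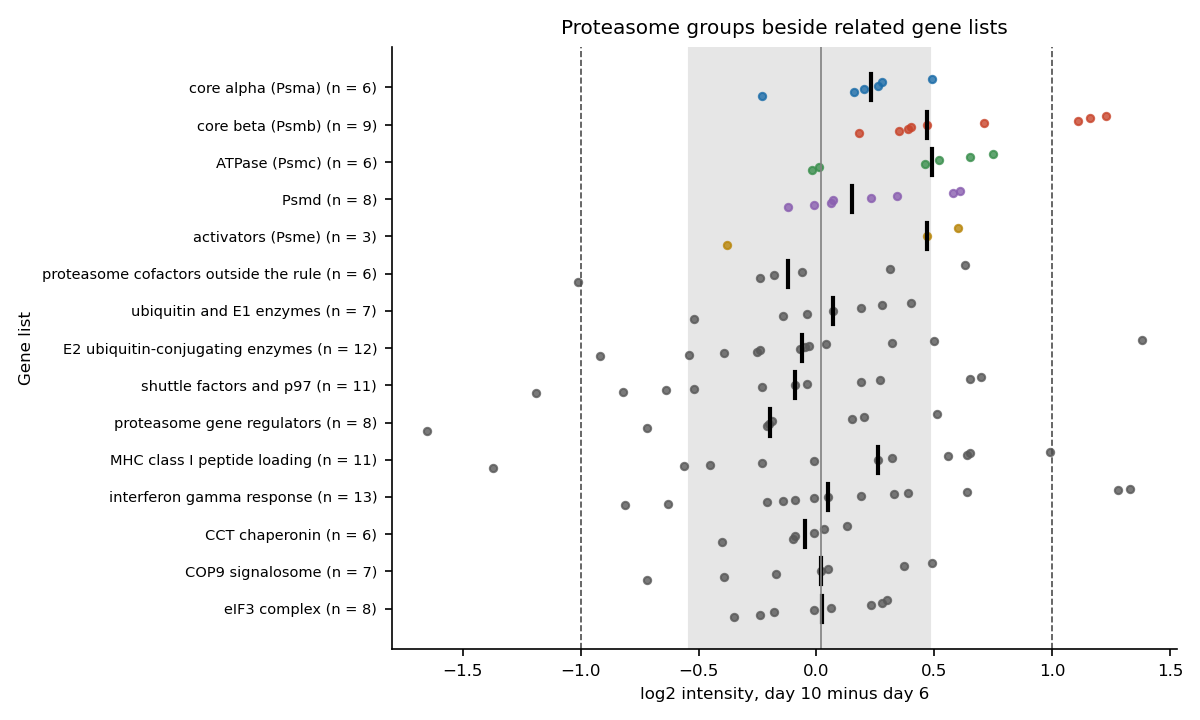
Log2 difference between day 10 and day 6 for the 5 proteasome symbol groups (coloured) and 10 related gene lists (grey), 1 point per gene above the floor on either day. Black bars are list medians, the grey band is the middle 50% of all genes, and dashed lines mark 2-fold. All 9 beta genes lie above 0, and the cofactor, E2, shuttle, regulator and CCT chaperonin lists have medians below 0.

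Neither shorter interval held a 2-fold difference among the proteasome genes, and both medians were below that from day 6 to day 10. Some genes differed more over a shorter interval, such as Psmb7, by 0.76 between days 8 and 10 against 0.40 between days 6 and 10. Between days 6 and 8 none of the 32 passed 2-fold in either direction, where 1.5% of all genes did. The median was 0.07, against 0.04 for all genes, and the range was -0.65 to 0.62. Of the 32, 21 were positive (65.6%), close to the 55.3% of all genes. With the span trend subtracted 15 of the 32 were positive, and 49.9% of named genes. At 1.5-fold, 1 was higher (Psmb10) and 1 lower (Psmd10), where 4.91% and 4.79% of all genes were. Between days 8 and 10 also none passed 2-fold, where 8.56% of all genes were higher and 13.7% lower (1196 and 1920 genes, 61.6% of them lower, and 51.5% with each array centred on its median). Of the 32, 28 were positive, against 49.4% of all genes, with a median of 0.29. At 1.5-fold, 6 were higher (18.8% of the 32 and 19.1% of all genes) and 0 lower, where 24.8% of all genes were. Both intervals use the day 8 array, and the values of day 8 enter them with opposite sign.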

How the data were processed

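Gene expression in rat testis was measured on 3 one-colour NimbleGen arrays, 1 for each of postnatal days 6, 8 and 10, and groups follow the age in the labels. For every RefSeq accession the authors deposited a linear intensity from each array, computed by RMA per the submitters' processing notes, of which no version or setting is given in the sources used here. RMA usually aligns the arrays' distributions, so a change in total mRNA would not show. A table of the whole series, also deposited, repeats these intensities (largest difference 0). The standard error column of the deposited files was not used.

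Intensities were taken to log2, and probe sets were named through their unversioned accession in RefSeq's gene table for GRCr8. Of 26419 probe sets 9747 had 1 symbol (36.9%) and the rest are unnamed here. Probe sets of a symbol were averaged. A random-sequence control had intensities of 25.0, 24.6 and 25.6. The number of arrays limits the precision, and no test was possible. Genes at least 2-fold different were counted, the threshold of the submitters' design text. The span trend was a lowess fit (fraction 0.3, 3 iterations) of the difference on log10 span over named genes (statsmodels 0.14.6). Quantile and cyclic loess normalization used limma 3.58.1. The counting and the span fit were tested on simulated data. Every gene of the symbol rule could be named. Of the other lists, the class I loading and cofactor genes and up to 3 genes with a 2-fold difference could be named. Irf1 and Nfe2l2 were named, and the background of genes as bright was added, after values were seen. The members, gene lists and groupings were chosen with earlier results of these data known.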

Additional observations from a re-analysis of the deposited data

How the results depend on the processing

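With 1 array per day, depth is limited to signal over background, and all 32 genes lay above the floor on every array. The median of the 32 between days 6 and 10, and that between days 8 and 10, stayed positive under median centring (0.48 and 0.41), quantile (0.35 and 0.26) and cyclic loess normalization (0.36 and 0.29), with the span trend subtracted (0.25 and 0.27) and without Psmc3ip (0.35 and 0.27), the last chosen after seeing the data. Other floors and the brightest probe set could not move these medians, since each gene has 1 probe set and lies above the floor. Between days 6 and 8 the median of 0.07 turned to -0.01 with the span trend subtracted. The gap between Psmb10 and Psmb7 turned from 0.31 to -0.45 there, which follows from their unlike spans. The 3 genes at least 2-fold higher from day 6 to day 10 became 0 with the span trend subtracted and 8 at a 1.5-fold threshold. At 1.5-fold the counts either way were 2 between days 6 and 8 and 6 between days 8 and 10. Between days 8 and 10 the count of 0 became 1 with median centring, quantile and cyclic loess normalization and the span trend subtracted. As measured, Psmb8 lay just under the threshold at 0.99. With the span trend subtracted the gene that passed was Psmb7 (1.10), and Psmb8 was at 0.73. Medians of the related lists between days 6 and 10 ranged under the alternatives from -0.18 to 0.05 for cofactors, 0.19 to 0.38 for class I loading, -0.02 to 0.17 for interferon response and -0.19 to 0.19 for ubiquitin and E1 genes. No paired analysis was possible because each day has 1 array, and for the same reason no replicate could be left out.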
